A study of Homo sapiens with 6 samples.

Results

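Canonical histone genes were described in A549 cells, a human lung adenocarcinoma line, after knockdown of BAP18, a subunit of chromatin complexes that is encoded by C17orf49. RNA was collected 48 h after transfection from 3 cultures given an siRNA against BAP18 (siBAP18) and from 3 given a non-specific siRNA (siCtrl), and poly(A)-selected RNA was sequenced. The sources used here do not state which BAP18 siRNA these cultures received. The histone genes are the rows of the deposited count table named HIST1H, HIST2H, HIST3H or HIST4H with at least 30 counts summed over the 6 libraries. Of 35474 genes listed, 78 carry such a name and 53 reached that sum. They encode 6 H1, 14 H2A, 15 H2B, 8 H3 and 10 H4 genes, of which 49 are annotated as protein coding and 4 as pseudogenes. The libraries held 53657450, 46035635 and 47099816 counts in siCtrl replicates 1, 2 and 3 and 53996860, 56548620 and 42094524 counts in siBAP18 replicates 1, 2 and 3.

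Canonical histones package DNA into nucleosomes, with H2A, H2B, H3 and H4 forming the core and H1 binding the linker DNA. Their genes lie in clusters and are transcribed mostly in S phase, when newly made DNA must be packed. Unlike other mRNAs, theirs usually end in a conserved stem-loop with no poly(A) tail, made by cleavage with the U7 small nuclear RNA and bound by SLBP. Some of these genes can also yield transcripts that run past the stem-loop to a poly(A) signal. Poly(A) selection favours the tailed forms, so that more histone transcripts and a larger share of transcripts with a tail cannot be told apart in these libraries.

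The stem-loop was searched by its consensus in the annotated transcripts of GENCODE 29, and it was found in 29 of the 53 histone genes (54.7%) against 94 of 57043 other genes (0.165%). For 17 histone genes the annotated model holds coding sequence alone, so neither the stem-loop nor a poly(A) signal after it could be searched there. An AATAAA poly(A) signal within the last 50 bases of a transcript was found for 21 of the histone genes, and 20 of these also held the stem-loop. The sequences below, from GENCODE 29 transcripts and written 5′ to 3′ as DNA, are those of leading genes of 4 histone types. The 16 bases of the stem-loop are in capitals and 7 bases on each side are in lower case.
HIST1H2AC: acccaaaGGCTCTTTTCAGAGCCcccctac
HIST3H2A: acataaaGGCTCTTTTCAGAGCCacctact
HIST2H2AA3: ctcaaaaGGCTCTTTTCAGAGCCacccacg
HIST1H2BD: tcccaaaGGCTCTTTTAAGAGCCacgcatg
HIST1H3E: atccaaaGGCTCTTCTCAGAGCCaaccact
HIST1H3H: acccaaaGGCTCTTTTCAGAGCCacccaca
HIST1H4I: ctaaaaaGGCCCTTTTTAGGGCCcctaagc
HIST1H4H: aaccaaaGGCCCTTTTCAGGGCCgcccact
HIST2H4A: tcccaaaGGCCCTTTTTAGGGCCgaccact
In the transcripts shown, 1128 bases follow the stem-loop in HIST1H2AC, 1655 in HIST1H4H and 769 in HIST1H3H, whereas 35 follow it in HIST2H2AA3. HIST1H2BD has an annotated transcript that ends 39 bases after the stem-loop, and its gene model in the table reaches from 26158146 to 26171349 on the plus strand of chromosome 6 (GRCh38).

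C17orf49 was measured first, as the target of the siRNA. Levels are given as counts or as CPM, which here relate a count to the library total as scaled by edgeR's TMM method. Its counts were 743, 751 and 705 in siCtrl and 120, 137 and 108 in siBAP18 libraries, so that the groups did not overlap. The log2 fold change was −2.65, with a standard error (SE) of 0.111 and, by the quasi-likelihood test of edgeR, a Benjamini-Hochberg adjusted p of 7.31e-16. The cells expressed KRT8, KRT18, KRT19 and EPCAM, markers of epithelium, and NQO1, AKR1B10 and ALDH1A1, which are high in A549, in all 6 libraries, from 60.9 CPM for EPCAM in siBAP18 replicate 3 to 13887 for KRT8 in siCtrl replicate 3. AKR1B10 and ALDH1A1 were lower in siBAP18 cells, at 1267 ± 27.6 against 2463 ± 44.1 CPM (SD, n = 3) and at 5163 ± 340.4 against 9283 ± 115.2 CPM, with log2 fold changes of −0.96 (adjusted p = 8.89e-12) and −0.85 (adjusted p = 2.50e-10). PECAM1, a marker of endothelium, had 45, 27 and 34 counts in siCtrl and 20, 10 and 8 in siBAP18 libraries, and SFTPC, a marker of mature type II alveolar cells, had at most 7 counts. PTPRC and DCN are not among the genes listed under these names, so they could not be examined.

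Of the 34 histone genes that were tested and reached 10 counts in a siCtrl library, 31 were higher in siBAP18 cells at an adjusted p below 0.05, against 23.8% of the genes tested on that basis. A further 7 reached 10 counts in no siCtrl library and entered the test only through their siBAP18 counts, and 12 were not tested. The 34 also include genes short of 10 counts in part of the siCtrl libraries, which needed their siBAP18 counts to be tested. Tested with at least 10 counts in every library, 22 of 23 histone genes were higher at an adjusted p below 0.05. Under the rule on fold change given below, 17 of the 23 were called higher, against 3.23% of all genes tested on that basis. The counts on the 53 genes summed to 4764, 4023 and 4363 in siCtrl and to 14876, 14091 and 9652 in siBAP18 libraries. As CPM the sum was 89.6, 86.5 and 93.3 in siCtrl and 273.4, 241.3 and 238.1 in siBAP18 libraries. The groups did not overlap, and the sum was 2.79 times as high in siBAP18 cells (250.9 ± 19.5 against 89.8 ± 3.42 CPM, SD, n = 3). HIST1H1C, the most abundant of the genes, held 23.6% to 27.5% of the histone counts in siCtrl and 27.2% to 30.5% in siBAP18 libraries. Without it the sums were 68.4, 63.9 and 67.7 CPM in siCtrl and 192.7, 175.6 and 165.4 CPM in siBAP18 libraries, 2.67 times as high in siBAP18.

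Among the 53, 41 genes passed edgeR's filter on low counts and were tested among 20776 genes. Calls required a log2 fold change beyond 1 in either direction with an adjusted p below 0.05. Under this rule 33 of the 41 (80.5%) were called higher, against 4.72% of all genes tested, and 0 were called lower, against 3.74%. At the adjusted p alone 38 were higher, against 24.5% of all genes tested, and 0 were lower, against 25.1%. The median log2 fold change of the 41 was 2.00, beside 0.00 (0.00102) for all genes tested. Some of these genes entered the test only through their siBAP18 counts, since 7 of the 41 reached 10 counts in no siCtrl library. Of the other 34, 26 (76.5%) were called higher, against 3.84% of the 20558 genes tested that reached 10 counts in a siCtrl library, and their median log2 fold change was 1.86. These 7 are HIST1H1D, HIST1H2BG, HIST1H2BO, HIST3H2BB, HIST1H4B, HIST1H4C and HIST2H4B, and the counts and medians by type, cluster and gene model given hereafter leave them out. The 34 still include genes with 10 counts in only part of the siCtrl libraries, such as HIST4H4 (8, 10 and 4) and HIST1H4E (14, 4 and 15). Such genes needed their siBAP18 counts to pass the filter, and no support is drawn from their tests. They are still within the counts and medians over the 34 and by type, cluster and gene model, which are given as a description. Of the 23 with at least 10 counts in every library, 17 were called higher, against 3.23% of all genes tested on that basis.

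Among the 34 genes, every siBAP18 library lay above every siCtrl library in CPM for 31, against 26.8% of genes tested with 10 counts in a siCtrl library. Over all 53, tested or not, this held for 49, and the groups overlapped for 4. The 49 are given as a description, since many genes with few counts met the sum of 30, or passed the filter, through their siBAP18 counts and so had to differ. The 31 share this limit in part, since some of the 34 reached 10 counts in only part of the siCtrl libraries. The mean was higher in siBAP18 for 51 of the 53 and lower for the pseudogenes HIST1H1PS1 and HIST1H2APS2. The counts were 8, 10 and 4 for HIST4H4 in siCtrl and 26, 31 and 18 in siBAP18 libraries, an example of how few counts lay behind many of these genes.

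RNAs without a poly(A) tail also changed in part. Of a list of 23 such RNAs 9 were tested, and 3 of these were called higher, 0 lower and 5 did not pass the test. Over all genes tested 4.72% were called higher and 3.74% lower. RN7SL1, the RNA of the signal recognition particle, had 6.92, 5.93 and 8.26 CPM in siCtrl and 29.04, 23.9 and 30.3 CPM in siBAP18 libraries. Its log2 fold change was 1.98, that of its near-identical copy RN7SL2 was 2.20, and that of SNORD3A, the U3 small nucleolar RNA, was 1.16. Reads can be divided between RN7SL1 and RN7SL2, so that their calls may not be separate measurements. RN7SK, which inhibits the elongation factor P-TEFb, passed on the adjusted p alone with 0.75. The log2 fold change of RPPH1, the RNA of RNase P, was −0.06 (adjusted p = 0.606), and that of RNU7-1, the U7 RNA, was 0.25 (adjusted p = 0.126). Summed over the list, the level was 37.4, 36.4 and 42.8 CPM in siCtrl and 86.3, 75.7 and 92.8 CPM in siBAP18 libraries, with RPPH1 the most abundant in siCtrl libraries (12.1, 12.7 and 12.3 CPM) and RN7SL1 in siBAP18 libraries. The mitochondrial share of all counts was 7.43%, 7.08% and 6.86% in siCtrl and 5.74%, 5.27% and 6.14% in siBAP18 libraries. Whether a carry-over of RNA without a tail contributed to the histone values was not tested, nor was the mitochondrial share.

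**Figure D1:**
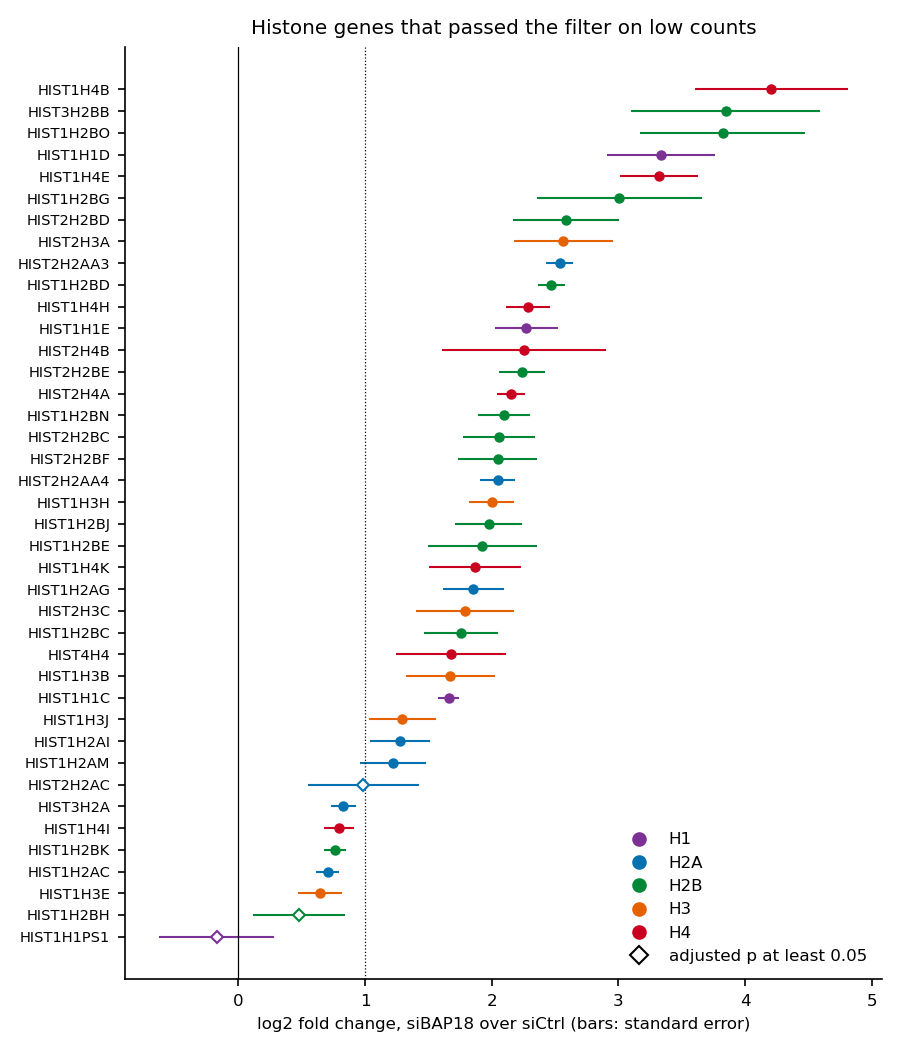
Log2 fold change (siBAP18 over siCtrl) of the tested histone genes, with bars for the standard error, the dotted line at a log2 fold change of 1 and colours for the histone type. HIST1H4C is left out, since it had 0 counts in all siCtrl libraries. Of the genes plotted, HIST1H1PS1 alone lies below 0, and the open symbols mark the 3 genes with an adjusted p of at least 0.05.

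Among linker histones 2 of 3 genes were called higher, beside HIST1H1D, which entered the test only through its siBAP18 counts. Of all genes tested with 10 counts in a siCtrl library 3.84% were called higher. HIST1H1C, which encodes H1.2, lies on chromosome 6 from 26055787 to 26056428 on the minus strand (GRCh38, as for all positions here). Its level was 21.2, 22.6 and 25.6 CPM in siCtrl and 80.7, 65.7 and 72.7 CPM in siBAP18 libraries. The groups were far apart, and the log2 fold change was 1.66 (SE 0.0835, adjusted p = 2.81e-14). HIST1H1E, which encodes H1.4, had 22, 20 and 26 counts in siCtrl and 154, 104 and 88 in siBAP18 libraries, with a log2 fold change of 2.27. HIST1H1D, which encodes H1.3, had 2, 5 and 6 counts against 55, 57 and 31, with a log2 fold change of 3.34 (SE 0.423), for which no support is drawn from the test. All siBAP18 libraries lay above all siCtrl libraries for HIST1H1C and HIST1H1E, as for 26.8% of genes tested with 10 counts in a siCtrl library. The separation of HIST1H1D is not counted, since that gene passed the filter only through its siBAP18 counts. The pseudogene HIST1H1PS1 had 19, 6 and 24 counts in siCtrl and 14, 23 and 9 in siBAP18 libraries. These overlapped, and the log2 fold change was −0.17 (adjusted p = 0.781), or 0.25 without siCtrl replicate 3.

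Of the 8 H2A genes tested, 5 were called higher, with a median log2 fold change of 1.25. This compares with 3.84% of all genes tested with 10 counts in a siCtrl library. HIST1H2AC, on chromosome 6 from 26124145 to 26139116 on the plus strand, had 17.8, 15.3 and 16.5 CPM in siCtrl and 30.1, 28.4 and 22.2 CPM in siBAP18 libraries. It was higher in all siBAP18 libraries, by a log2 fold change of 0.70 (SE 0.0938, adjusted p = 7.49e-07), which is below the fold threshold. HIST3H2A was similar, with 8.39, 8.26 and 9.37 CPM in siCtrl, 17.5, 13.7 and 14.9 CPM in siBAP18 libraries and a log2 fold change of 0.83. HIST2H2AA3, on chromosome 1 from 149842188 to 149842736 on the minus strand, rose more. Its level was 2.63, 2.80 and 2.74 CPM in siCtrl and 17.1, 14.5 and 15.8 CPM in siBAP18 libraries, a log2 fold change of 2.54 (SE 0.107, adjusted p = 7.65e-16). Every 150-base window of its transcript also occurs in HIST2H2AA4, so that reads can be divided between both copies. HIST2H2AA4 had a log2 fold change of 2.05. HIST2H2AC was not called, with 8, 8 and 18 counts in siCtrl, 37, 22 and 13 in siBAP18 libraries and a log2 fold change of 0.98 (adjusted p = 0.0655). That depended on single libraries, since it was called without siCtrl replicate 3 (log2 fold change 1.51, adjusted p = 0.0206) and without siBAP18 replicate 3 (1.17, adjusted p = 0.0391), and had 0.58 without siBAP18 replicate 1.

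H2B genes were the largest type, and 9 of 11 were called higher with a median log2 fold change of 2.05. These counts leave out HIST1H2BG, HIST1H2BO and HIST3H2BB. Among all genes tested with 10 counts in a siCtrl library, 3.84% were called higher. The 9 include HIST1H2BE, HIST2H2BD and HIST2H2BF, which had fewer than 10 counts in part of the siCtrl libraries. HIST1H2BK, on chromosome 6 from 27146418 to 27146798 on the minus strand, had 12.5, 10.8 and 13.1 CPM in siCtrl and 21.7, 19.1 and 21.1 CPM in siBAP18 libraries. Its log2 fold change was 0.76 (SE 0.0868, adjusted p = 6.23e-08). HIST1H2BD, which lies in the same cluster, had 3.01, 3.12 and 3.62 CPM in siCtrl and 18.6, 19.1 and 16.1 CPM in siBAP18 libraries. It rose by a log2 fold change of 2.47 (SE 0.106, adjusted p = 1.13e-15). The groups did not overlap for either gene. HIST1H2BN had 63, 45 and 29 counts in siCtrl and 272, 206 and 138 in siBAP18 libraries, with a log2 fold change of 2.10. HIST1H2AK lies within the model of HIST1H2BN on the other strand, so that reads of these genes cannot be told apart with certainty. HIST1H2AL overlaps HIST1H2BN on the same strand by only 4 bases. HIST1H2BH did not pass the test, with 30, 13 and 15 counts in siCtrl, 22, 38 and 24 in siBAP18 libraries and a log2 fold change of 0.48 (adjusted p = 0.290).

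**Figure D2:**
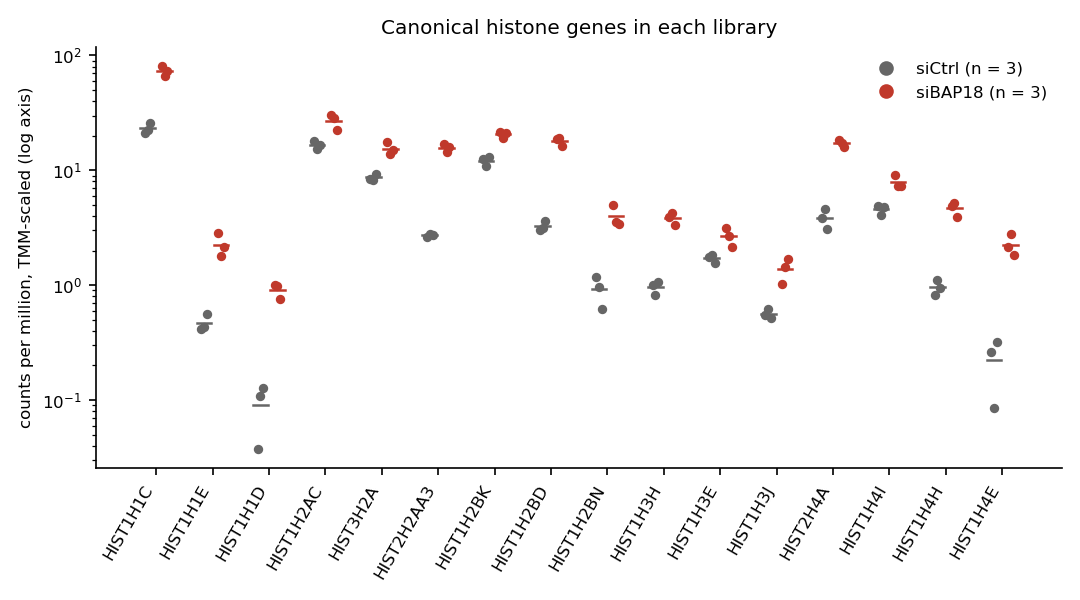
Level in CPM (TMM-scaled, log axis) of the histone genes named by rule, the 3 with the highest average level of each type and the 5 largest rises, with 1 point per library and a line at the group mean. The siBAP18 points (n = 3) lie above the siCtrl points (n = 3) for every gene shown, by less for HIST1H2AC and HIST1H3E than for HIST2H2AA3 and HIST1H4E. This is a description, since the 5 largest rises were chosen for no overlap between groups. HIST1H1D also passed the filter only through its siBAP18 counts, and HIST1H4E needed its siBAP18 counts to pass.

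Of the 6 H3 genes tested, 5 were called higher, with a median log2 fold change of 1.73 over the 6. The share called higher among all genes tested with 10 counts in a siCtrl library was 3.84%. The 5 include HIST1H3B, HIST2H3A and HIST2H3C, which had fewer than 10 counts in part of the siCtrl libraries. HIST1H3H rose from 0.996, 0.817 and 1.07 CPM in siCtrl to 3.95, 4.21 and 3.35 CPM in siBAP18 libraries, a log2 fold change of 2.00 (SE 0.176, adjusted p = 7.94e-10). HIST1H3E moved less, with 1.77, 1.85 and 1.56 CPM in siCtrl, 3.16, 2.71 and 2.17 CPM in siBAP18 libraries and a log2 fold change of 0.64 (SE 0.175, adjusted p = 0.00346). HIST1H3J, with 29, 29 and 24 counts against 56, 84 and 69, had a log2 fold change of 1.30. It overlaps HIST1H2AM on the same strand, whose counts were nearly the same (29, 30 and 24 in siCtrl and 56, 82 and 64 in siBAP18), so that these are not separate measurements.

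Of 6 H4 genes, 5 were called higher, with a median log2 fold change of 2.01, leaving out HIST1H4B, HIST1H4C and HIST2H4B. Among all genes tested with 10 counts in a siCtrl library, 3.84% were called higher. The 5 include HIST1H4E, HIST1H4K and HIST4H4, which had fewer than 10 counts in part of the siCtrl libraries. HIST2H4A, on chromosome 1 from 149832659 to 149839767 on the plus strand, had 3.87, 4.62 and 3.10 CPM in siCtrl and 18.3, 17.3 and 15.9 CPM in siBAP18 libraries, a log2 fold change of 2.15 (SE 0.114, adjusted p = 7.45e-14). HIST2H4B shares its sequence, and it was given 8, 0 and 1 counts in siCtrl and 14, 20 and 12 in siBAP18 libraries. HIST1H4H had 0.827, 1.12 and 0.941 CPM in siCtrl and 4.89, 5.21 and 3.90 CPM in siBAP18 libraries, a log2 fold change of 2.29. The largest rise among genes whose average log2 CPM was 0 or more was that of HIST1H4E, which had 14, 4 and 15 counts in siCtrl and 117, 162 and 74 in siBAP18 libraries. Its log2 fold change was 3.32 (SE 0.307, adjusted p = 1.86e-09). HIST1H4E needed its siBAP18 counts to pass the filter, so no support is drawn from this test. HIST1H4I, with 4.85, 4.06 and 4.81 CPM in siCtrl and 9.19, 7.28 and 7.35 CPM in siBAP18 libraries, stayed below the fold threshold at 0.80.

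HIST1H4C, HIST1H2AB and HIST1H2AH had 0 counts in all siCtrl libraries. They met the sum of 30 only through their siBAP18 counts and so had to be higher there, and their bounds are a description. A count of 0 allows up to 3 read pairs, or 6 counts per library where both mates are counted. The bounds leave out counting error in siBAP18 libraries. HIST1H4C had 34, 26 and 23 counts in siBAP18 libraries and was at least 4.42-fold higher there, taking 6 counts in each siCtrl library as the bound. HIST1H2AB had 12, 17 and 8 counts and was at least 1.92-fold higher. HIST1H2AH had 16, 15 and 2 counts and was at least 1.62-fold higher on the mean, although its count in siBAP18 replicate 3 was itself within the bound. The genes just inside the minimum of 30 summed counts were HIST1H2AK (32), HIST1H2AH (33) and HIST1H3I (34). Just outside it were HIST1H4L, HIST1H2BF and HIST2H2BB with 28 each. HIST1H4L had 0 counts in all siCtrl libraries and 16, 8 and 4 in siBAP18 libraries, and HIST1H2BF had 6, 4 and 0 against 8, 8 and 2. The 25 histone rows under the minimum held 36, 21 and 26 counts together in siCtrl and 96, 72 and 45 in siBAP18 libraries.

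**Figure D3:**
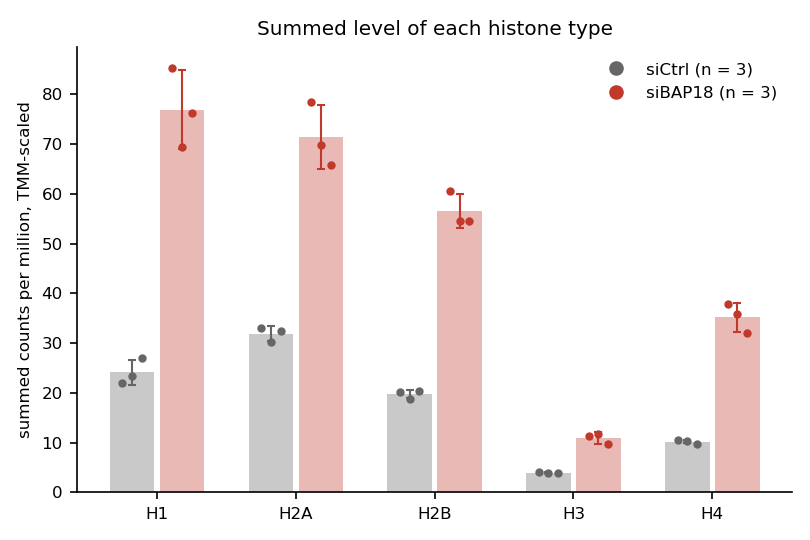
Summed level of each histone type in CPM (TMM-scaled), with bars at the group mean, error bars for the SD (n = 3) and 1 point per library. The mean went from 24.1 to 76.9 CPM for H1 and from 31.9 to 71.4 CPM for H2A, and the groups do not overlap for any of the 5 types.

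Summed by type, the ratio of siBAP18 to siCtrl levels in CPM was 3.19 for H1, 2.24 for H2A, 2.86 for H2B, 2.77 for H3 and 3.46 for H4. By cluster, the sum was 2.62 times as high for the 37 HIST1 genes on chromosome 6 and 4.72 times as high for the 13 HIST2 genes on chromosome 1. In the HIST2 cluster 9 of 10 genes were called higher, with a median log2 fold change of 2.10, and in the HIST1 cluster 16 of 22, with 1.72. Beside these counts, 3.84% of all genes tested with 10 counts in a siCtrl library were called higher. The HIST2 sums rest largely on genes that share sequence. These differences between types and clusters were not tested.

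Calls were found across kinds of gene model. The share called higher among all genes tested with 10 counts in a siCtrl library was 3.84%. Of 16 genes with models of at least 1000 bases 12 were called higher, with a median log2 fold change of 1.96, and of 18 with shorter models 14 were called, with 1.72. Of 24 genes with an annotated stem-loop 19 were called higher (median 2.02), and of 10 without one 7 were called (median 1.48). Of 20 genes with an AATAAA near a transcript end 17 were called higher (median 2.05), and of 14 without one 9 were called (median 1.29). The 10 and the 14 both include 6 genes whose models hold coding sequence alone, where neither feature could be searched. Shared sequence or overlap with another gene was found for 22 of the 53. Of 19 genes with neither, 12 were called higher, with a median log2 fold change of 1.68. None of these differences was tested. Genes of 1 exon block under 1000 bases, other than histone genes, were called higher in 67 of 1537 cases (4.36%), with a median log2 fold change of 0.02 (0.0164). Within 100 kb of a histone gene 31 other genes were tested, and 3 of these (9.68%) were called higher. These are H2AFJ, RP11-196G18.23 and RP1-221C16.8, of which the last overlaps HIST1H2BE on the other strand, and they are named because of their values.

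Per kilobase of gene model, HIST1H1C (36.0 ± 3.55 CPM per kb, SD, n = 3) and HIST1H2BK (31.8 ± 3.11) were the highest in siCtrl cells, and these 2 differed by little more than their spread. HIST1H2AC (9.92 ± 0.773) and HIST3H2A (9.69 ± 0.680) followed, and they did not differ beyond their spread. HIST2H2AA3 was at 4.96 ± 0.151 and HIST1H2BD at 3.73 ± 0.371 CPM per kb. In siBAP18 cells HIST1H1C stood at 114 ± 11.7 CPM per kb, HIST1H2BK at 54.1 ± 3.62, HIST2H2AA3 at 28.8 ± 2.36 and HIST1H2BD at 20.6 ± 1.83. By their means HIST2H2AA3 and HIST1H2BD had thus passed HIST3H2A (17.2 ± 2.17) and HIST1H2AC (16.1 ± 2.48) in order. The order between genes depends on their models, since those of HIST1H1C and HIST1H2BK hold coding sequence alone and that of HIST1H2AC has 1668 bases. The level of HIST2H2AA3 also depends on how reads were divided with HIST2H2AA4. HIST1H2BD and HIST3H2A differed by little more than their spread, and these ranges overlapped. HIST1H2AC took 19.9%, 17.6% and 17.7% of the histone counts in siCtrl and 11.0%, 11.8% and 9.33% in siBAP18 libraries.

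**Figure D4:**
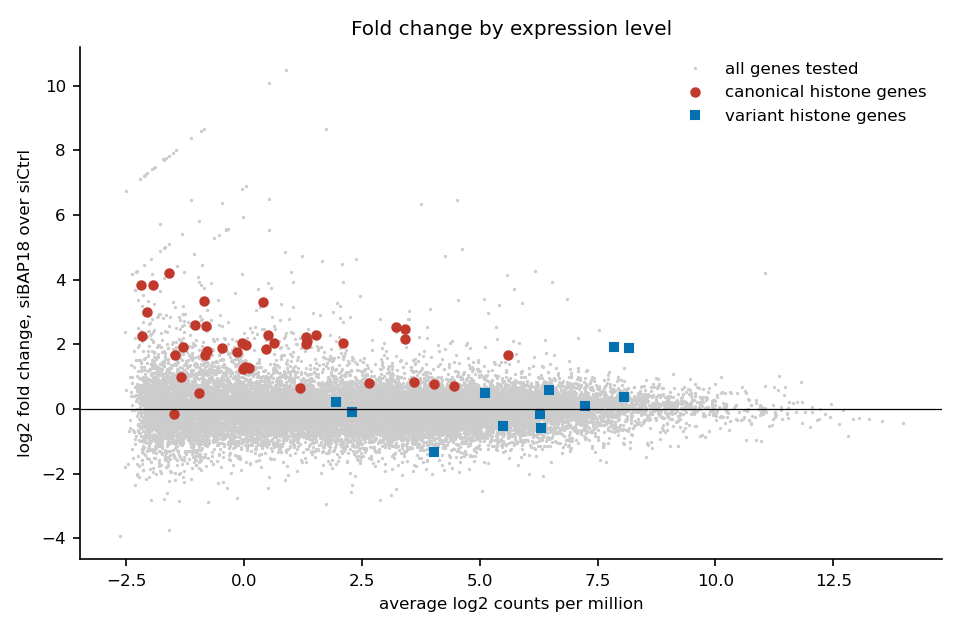
Log2 fold change (siBAP18 over siCtrl) against average log2 CPM for all 20776 genes tested (grey), with the tested canonical histone genes in red (HIST1H4C, at 0 in siCtrl, left out as a red point) and 12 variant histone genes in blue. Red points lie above 0 except HIST1H1PS1, and the 5 genes that passed the adjusted p with a log2 fold change below 1 all have an average log2 CPM over 1.

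Variant histones, which replace canonical ones outside replication and whose mRNAs mostly carry poly(A) tails, moved in both directions. Of 12 tested 2 were called higher and 1 lower, against 4.72% and 3.74% of all genes tested. At the adjusted p alone 5 were higher and 3 lower, against 24.5% and 25.1%, so that the 3 lie near the share over all genes. H1F0, the linker histone H1.0 of resting and differentiated cells, had 119.9, 121.1 and 122.4 CPM in siCtrl and 454.6, 453.0 and 441.0 CPM in siBAP18 libraries, a log2 fold change of 1.89. H2AFJ, an H2A variant, lies near HIST4H4 on chromosome 12. It rose by 1.91 on the log2 scale (adjusted p = 2.32e-16). H2AFX, which encodes the variant phosphorylated at DNA breaks and which is among the other genes with a stem-loop, went the other way. Its level was 23.4, 22.8 and 23.4 CPM in siCtrl and 10.7, 8.56 and 8.58 CPM in siBAP18 libraries, and it fell by 1.32 on the log2 scale (SE 0.0895, adjusted p = 7.46e-12). H2AFZ and H2AFV, which encode forms of H2A.Z, had log2 fold changes of −0.51 and −0.58. For the H3.3 genes the log2 fold change was 0.36 for H3F3B and −0.14 for H3F3A (adjusted p = 0.0743), of which the latter was 0.03 with offsets for gene length and GC content.

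Genes that act on histone genes and their mRNAs were listed by role. Of 18 for transcription and 3′ end formation, 0 were called higher and 3 lower, against 4.72% and 3.74% of all genes tested. At the adjusted p alone 3 were higher and 9 lower, against 24.5% and 25.1%. The median log2 fold change was −0.13. NPAT, a coactivator of histone genes that cyclin E and CDK2 phosphorylate, had 168, 122 and 130 counts in siCtrl and 74, 64 and 54 in siBAP18 libraries. It fell by 1.18 on the log2 scale (SE 0.177, adjusted p = 4.06e-06). CASP8AP2, a component of histone locus bodies, fell by 1.15, CCNE2 by 1.32 and CDK2 by 0.88. SLBP, which binds the stem-loop, had 61.4, 64.8 and 64.5 CPM in siCtrl and 54.2, 56.1 and 53.1 CPM in siBAP18 libraries, a log2 fold change of −0.22 (adjusted p = 0.00687). CPSF2, a partner of the nuclease that cuts histone pre-mRNA, fell by 0.63. The 3 genes higher at the adjusted p were HINFP, an activator of H4 genes, with a log2 fold change of 0.57 (adjusted p = 7.78e-07), ZNF473, which binds the U7 particle, with 0.45, and NELFE, a subunit of the elongation factor NELF, with 0.33.

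Of 12 genes for translation and decay of histone mRNA 0 were called, and at the adjusted p alone 2 were higher and 5 lower. Over all genes tested 4.72% were called higher and 3.74% lower, and at the adjusted p alone 24.5% were higher and 25.1% lower. ERI1, an exonuclease that trims the stem-loop end, had a log2 fold change of −0.78, and ZCCHC11, which adds uridines to RNA ends, had −0.73. LSM1, of the decay complex that binds such uridine tails, rose by 0.50. Of 23 histone chaperone genes 0 were called higher and 1 lower, against the same shares over all genes. At the adjusted p alone 4 were higher and 14 lower, with a median log2 fold change of −0.35. ASF1B, which hands H3 and H4 to the assembly factors, was the gene called, with a log2 fold change of −1.06. ANP32E, which removes H2A.Z from chromatin, fell by 0.99, HJURP, the chaperone of CENPA, by 0.77 and DNAJC9, which binds H3 and H4, by 0.67.

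S phase markers were lower throughout. All 20 were lower at the adjusted p, against 25.1% of all genes tested, and 9 of them were called lower, against 3.74%. The median log2 fold change was −0.96. CLSPN, a checkpoint adaptor at replication forks, had 22.0, 26.9 and 26.9 CPM in siCtrl and 6.16, 5.96 and 6.54 CPM in siBAP18 libraries, and it fell by 2.03 on the log2 scale. UHRF1, which maintains DNA methylation behind the fork, fell by 1.64, EXO1, a repair exonuclease, by 1.73 and the chromatin remodeler HELLS by 1.45. Summed over the 20 genes, the level was 1437, 1440 and 1454 CPM in siCtrl and 839, 851 and 840 CPM in siBAP18 libraries. The histone genes and these markers thus moved in opposite directions. In bulk RNA, fewer cells in S phase and less RNA per cell cannot be told apart.

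**Figure D5:**
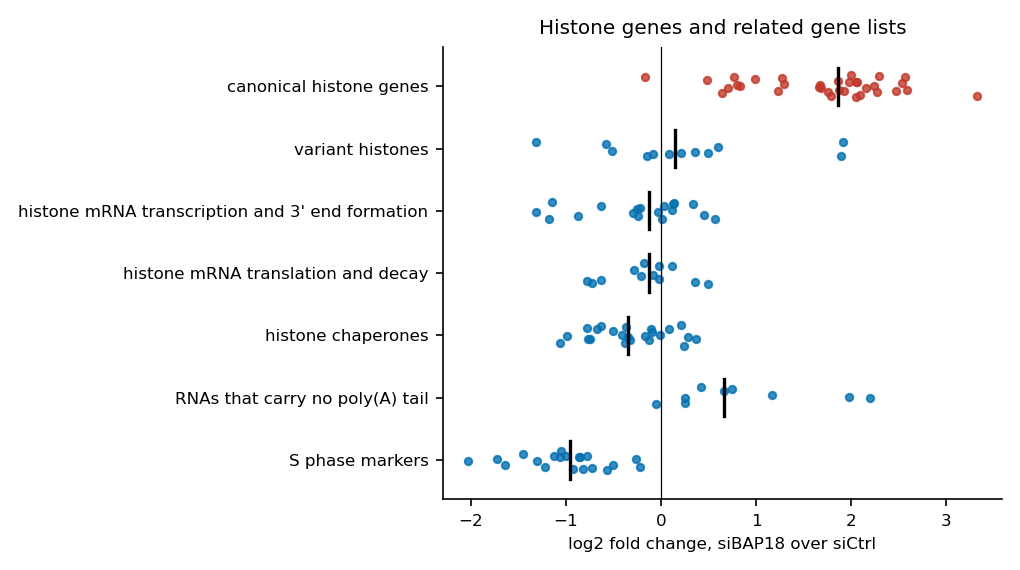
Log2 fold change (siBAP18 over siCtrl) of each tested gene, 1 point per gene, in the 34 canonical histone genes with 10 counts in a siCtrl library and in 6 related lists, with a line at each median. The medians are 1.86 for the canonical histone genes and −0.96 for the S phase markers, with the variant histones (0.14) between them. The 34 include genes with fewer than 10 counts in part of the siCtrl libraries, which needed their siBAP18 counts to be tested.

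Promoters were taken from RefSeq (GRCh38.p14), from 250 bases before to 50 after the start, and 45 of the 53 histone genes were matched. Both strands were searched for CCAAT, for the octamer ATTTGCAT and for the TATA box TATAAA, of which the last can overlap its own reverse complement. CCAAT was found in 37 (82.2%) of the histone promoters against 35.6% of 27260 others, and in 1 of 9 for H4. The octamer was found in 16 (35.6%) against 1.75%, in 9 of 13 H2B and 7 of 12 H2A promoters and in 0 of the other types. The 16 are not all separate sites, since some H2A and H2B genes on opposite strands share most of a promoter stretch. For such genes, as for HIST1H2AC and HIST1H2BC, the same octamer was counted for both. TATAAA was found in 31 (68.9%) against 11.9%. The 120 bases before the start are shown for 4 abundant genes, in lower case with these motifs in capitals on either strand, as examples of promoters with and without them.
HIST1H1C, chr6:26056471-26056590, minus strand: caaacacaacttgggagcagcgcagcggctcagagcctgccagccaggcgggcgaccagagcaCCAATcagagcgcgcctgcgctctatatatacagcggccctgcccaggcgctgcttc
HIST1H2BK, chr6:27146859-27146978, minus strand: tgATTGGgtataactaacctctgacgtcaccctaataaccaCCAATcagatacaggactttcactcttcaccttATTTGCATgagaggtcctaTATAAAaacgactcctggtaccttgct
HIST1H2BD, chr6:26158001-26158120, plus strand: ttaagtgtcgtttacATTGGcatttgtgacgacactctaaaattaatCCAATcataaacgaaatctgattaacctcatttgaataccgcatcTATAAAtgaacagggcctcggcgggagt
HIST2H4A, chr1:149832537-149832656, plus strand: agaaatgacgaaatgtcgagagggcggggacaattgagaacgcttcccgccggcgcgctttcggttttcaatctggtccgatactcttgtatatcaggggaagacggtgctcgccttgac
The octamer is present in the stretch shown for HIST1H2BK and absent from the 250 bases before the start of HIST1H2BD. HIST2H4A holds none of the 3 motifs in the stretch shown. Promoters with the octamer belong to genes with small and with large log2 fold changes, such as HIST1H2BK (0.76) and HIST2H2BE (2.24), and so do those without it, such as HIST3H2A (0.83) and HIST1H2BD (2.47). A match of letters is a description and does not show that a factor was bound.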

How the data were processed

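Per the labels, poly(A) RNA was made into dUTP strand-specific libraries. The authors deposited raw counts per gene, as whole numbers, and an RPKM table that was not used here. The aligner, counting program and use of strand are not given in the sources used here. Of values from 1 to 20, 74.9% to 77.2% were even, against 51.6% to 53.6% of those over 1000, so that both mates of a pair appear to have been counted. Counts were analysed with edgeR 4.0.16 and limma 3.58.1 in R 4.3.3 (filterByExpr, TMM, quasi-likelihood test, Benjamini-Hochberg adjustment over all 20776 genes tested, standard error as log2 fold change over the square root of F). DESeq2 1.42.0 was an alternative. CPM were computed on TMM-scaled totals. P-values measure the spread between 3 biological replicates per group, and bounds on 0 counts cover counting error only. No replicates were copies, since chi-square over its degrees of freedom was 3.95 to 4.57 between siCtrl and 10.1 to 23.3 between siBAP18 libraries. The fit was tested on simulated data for siBAP18 against siCtrl with 4-fold changes, where 200 of 200 changed genes and 4 others of 20462 were called.

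All 78 histone rows were matched by name to GENCODE 29. Shared sequence is the share of 150-base transcript windows found in another gene. Tables and plots used Python 3.11.15, pandas 2.3.3, numpy 2.4.6, scipy 1.17.1 and matplotlib 3.10.9. The histone genes and gene lists were chosen with earlier results of these data known. Named genes are C17orf49, the 3 histone genes with the highest average log2 CPM of each type, the 5 largest rises and falls (adjusted p under 0.05, average log2 CPM of at least 0, no overlap; there were no falls), up to 4 genes with the smallest adjusted p per list, 8 further genes (SLBP, NPAT, CASP8AP2, H2AFX, H2AFZ, H3F3A, H3F3B and H1F0) and the genes next to the minimum of 30 counts. Other genes are named as examples, chosen after their values were seen. Alternatives were DESeq2's size factors and Wald test, total counts only, leaving out the filter, a minimum of 10 counts in every library, a fold over 1.5, a replicate block, offsets for gene length and GC content, and each library left out. Halved counts, histone genes without shared sequence or overlap, and the subset of genes that reached 10 counts in a siCtrl library were added after seeing the data.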

Additional observations from a re-analysis of the deposited data

How the results depend on the processing

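The 26 histone genes called higher that reached 10 counts in a siCtrl library were called in every fit that tested them, and the count over all histone genes changed mainly with how many were tested. With at least 10 counts in every library, 23 were tested, 17 were called and 22 were higher at the adjusted p, and 605 of all genes (3.23%) were called higher. Without a filter 42 of 53 were called (3.35% of all genes) and with the DESeq2 Wald test 40 of 53 (3.92%), where genes with few or 0 counts in siCtrl are added, and with halved counts 29 of 35 (4.21%). In each of these 3 fits 26 of those called had reached 10 counts in a siCtrl library. Of the 24 tested histone genes without shared sequence or overlap 17 were called, or 12 of the 19 that reached 10 counts in a siCtrl library. At a fold over 1.5 all genes called rose to 2170 higher and 2349 lower. With each library left out, the histone genes called higher numbered 33 to 42 (4.53% to 4.94% of all genes), of which 26 to 27 had reached 10 counts in a siCtrl library, and the median log2 fold change of all histone genes tested lay between 1.90 and 2.09. Those called lower and those lower at the adjusted p numbered 0 to 1. The 1 gene was the pseudogene HIST1H2APS2 without siBAP18 replicate 3 (log2 fold change −1.58, adjusted p = 0.0490), which overlaps SLC17A3. C17orf49 lay between −2.83 and −2.60 under all alternatives. H3F3A was 0.03 (0.0337) with offsets for gene length and GC content. Of 628 pairs of a named gene and an alternative 626 kept their direction and their side of the threshold.

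Libraries with the same replicate number were not taken as pairs, since their deviations from the group means had a Pearson r across genes of 0.0508, 0.154 and 0.0633, although each of the 6 libraries correlated best with its own number in the other group, a hint from the data and not from the design. With a replicate block 33 histone genes were called higher and 0 lower, beside 968 and 773 of all genes, and H3F3A passed the adjusted p (−0.14, adjusted p = 0.0431). Scaling by DESeq2's size factors moved the median log2 fold change of all genes by 0.00841 and scaling by total counts by 0.00574. Of the 13 fits that tested HIST2H2AC, 2 called it, those without siCtrl replicate 3 and without siBAP18 replicate 3. Many histone genes rest on few counts, and 7 tested genes had fewer than 10 in each siCtrl library.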
